A study of Mus musculus with 12 samples.

Results

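DNA replication and nucleotide synthesis genes were followed in the RNA of B16F10 melanoma tumours given 2 anticancer drugs. The set holds 55 genes named in a list, found as the rows of the deposited table whose gene name, without a trailing hyphen and 3 digits, is on that list. They are 55 of the 50600 genes of the table, and the rule that finds them uses names only. B16F10 is a mouse melanoma cell line, here grown as a tumour under the skin of C57Bl/6 mice from 50000 cells each, with wild genotype per the labels. The mice were dosed by mouth each day for 11 days with drug vehicle, with 25 mg/kg alisertib, with 100 mg/kg navitoclax, or with both at these doses, and 3 tumour libraries were sequenced in each of the 4 groups. Alisertib inhibits the mitotic kinase Aurora A, and navitoclax blocks proteins of the BCL-2 family that keep cells alive. All groups carry tumours of the same transplanted line, so the comparisons concern 1 line, and the RNA of a whole tumour includes that of the host cells in it. The age of the mice is not given in the sources used here. Whether the 3 libraries of a group came from different mice is not stated in the labels, so the p-values rest on a spread that may be technical in part.

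Chromosomes are copied once per cell cycle. In G1 phase the origin recognition complex, with Cdc6 and Cdt1, loads the ring-shaped MCM helicase onto DNA, which licenses the origin. In S phase the kinase Cdc7 with Dbf4, together with Cdc45 and the GINS complex, turns MCM into the moving helicase, and the polymerases, the sliding clamp PCNA, single-strand binding proteins and the enzymes that make deoxynucleotides do the copying. Many of these genes are transcribed together at the passage from G1 to S phase by E2F transcription factors, and tumours with many dividing cells are known for high levels of them. The protein p21, the product of Cdkn1a, inhibits the cyclin-dependent kinases that free E2F from its repressors.

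Promoter stretches of 8 of the genes are shown because E2F factors are known to bind DNA of the letters TTTCGCGC, TTTGGCGC or TTCCCGCC. The first 6 are the genes with the smallest p for alisertib among those that hold 1 of these motifs on either strand, and the last 2 are the genes with the largest p among those that hold none. Sequences are from RefSeq on build GRCm38.p6, written 5′ to 3′ on the strand of the gene, with the motifs in capitals.
Mcm5, chr8:75109351-75109528, plus strand: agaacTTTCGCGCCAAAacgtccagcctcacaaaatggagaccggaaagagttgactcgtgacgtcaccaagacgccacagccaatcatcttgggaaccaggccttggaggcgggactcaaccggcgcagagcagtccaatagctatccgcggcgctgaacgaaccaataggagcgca
Uhrf1, chr17:56303207-56303356, plus strand: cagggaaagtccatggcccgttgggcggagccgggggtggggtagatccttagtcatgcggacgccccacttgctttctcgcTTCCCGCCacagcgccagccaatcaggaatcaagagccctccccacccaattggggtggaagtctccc
Clspn, chr4:126556850-126557009, plus strand: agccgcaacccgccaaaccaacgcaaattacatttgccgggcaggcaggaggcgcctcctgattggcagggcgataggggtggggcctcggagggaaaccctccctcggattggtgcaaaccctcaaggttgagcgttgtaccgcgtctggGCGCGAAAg
Pola1, chrX:93632136-93632298, minus strand: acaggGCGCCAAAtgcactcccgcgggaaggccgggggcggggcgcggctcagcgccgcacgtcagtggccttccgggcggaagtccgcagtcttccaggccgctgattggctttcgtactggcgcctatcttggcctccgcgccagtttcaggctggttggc
Pold3, chr7:100121473-100121632, minus strand: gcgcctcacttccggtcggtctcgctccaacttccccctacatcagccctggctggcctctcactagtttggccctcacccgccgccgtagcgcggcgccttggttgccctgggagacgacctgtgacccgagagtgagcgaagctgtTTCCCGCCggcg
Dtl, chr1:191575525-191575674, minus strand: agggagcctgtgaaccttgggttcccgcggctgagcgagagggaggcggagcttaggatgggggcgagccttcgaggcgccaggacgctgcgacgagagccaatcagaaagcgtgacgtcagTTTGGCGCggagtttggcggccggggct
Rpa1, chr11:75348364-75348513, minus strand: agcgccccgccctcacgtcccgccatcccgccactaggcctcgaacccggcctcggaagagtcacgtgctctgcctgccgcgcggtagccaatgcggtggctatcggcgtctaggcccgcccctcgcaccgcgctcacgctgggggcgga
Rpa3, chr6:8259122-8259271, minus strand: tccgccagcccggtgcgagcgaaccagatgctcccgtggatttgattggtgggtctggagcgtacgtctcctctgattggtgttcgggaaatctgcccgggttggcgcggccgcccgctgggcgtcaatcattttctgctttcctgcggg

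In Mcm5 the TTTCGCGC begins 153 bases before the RefSeq start of the gene, and a TTTGGCGC on the other strand overlaps it by 4 bases. The motif begins 8 bases before the start in Dtl, 48 in Uhrf1 and 138 in Pola1, and lies after the start in Clspn and Pold3. RefSeq promoters, which run from 250 bases before a start to 50 after it, were matched by symbol for 46 of the 55 genes. Gins1, Gins2, Gins4, Gmnn, Mcm4, Pole, Prim2, Rfc2 and Tipin had no match. A motif stood in 20 of the 46 genes (43.5%), against 917 of the 27025 genes of the RefSeq table (3.39%). By letters, TTTCGCGC stood in 14.8% of the 54 promoters of the set and 0.323% of all 32851 promoters, TTTGGCGC in 13.0% and 0.514%, and TTCCCGCC in 16.7% and 2.19%. Of the genes that fell with alisertib (given below) 6 of 16 held a motif, and of the others 14 of 30 did. A match describes letters in this window and is neither a binding site nor a cause.

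Libraries held 26.8 to 36.7 M reads (M, mega). The loci Gm26917 and Gm42418, which take ribosomal RNA reads, held 63.3% of them in vehicle 2 and 73.7% in combination 3, against 13.8 to 35.4% in the other 10 libraries, which left 9.86 and 7.08 M other reads against 21.9 to 27.6 M. These 2 libraries stand apart, and results are given with and without them below. The lowest count of any of the 55 genes was 16 reads (Pole2, combination 3), so all 55 passed the filter on low values. Melanocyte markers were present as labelled, with all 8 detected and a summed level of 435432 to 581228 with vehicle. The target of alisertib, Aurka, stood at 1212 ± 227 with vehicle and 1028 ± 212 with alisertib. Cdkn1a stood at 4307 ± 919 with vehicle, 10572 ± 366 with alisertib, 3488 ± 687 with navitoclax and 12604 ± 2144 with both drugs (normalised values, SD, n = 3).

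The 55 genes together took a smaller part of the tumour RNA in both groups given alisertib and a larger part with navitoclax alone. Of the reads outside the ribosomal loci they held 0.397, 0.418 and 0.401% in the vehicle libraries, 0.289, 0.280 and 0.369% with alisertib, 0.468, 0.491 and 0.443% with navitoclax, and 0.280, 0.351 and 0.341% with both drugs. Every library with alisertib lay below every vehicle library, and every navitoclax library lay above them. Group means were 0.405 ± 0.0107% with vehicle, 0.313 ± 0.0488% with alisertib, 0.468 ± 0.0242% with navitoclax and 0.324 ± 0.0386% with both (SD, n = 3). Alisertib 3 was the highest of its group and stood nearest to vehicle. In a bulk tumour, fewer replicating cells and less RNA of these genes per cell cannot be told apart.

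**Figure D1:**
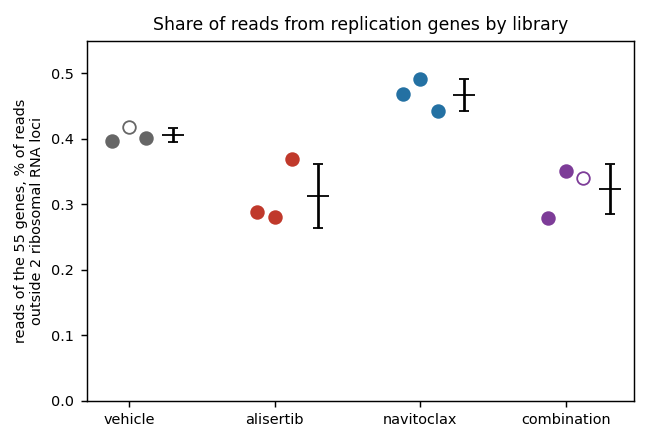
Reads of the 55 replication genes as a percent of the reads outside the 2 ribosomal RNA loci (y axis) in each library, by group (x axis); open circles are vehicle 2 and combination 3, and the bars give mean ± SD of 3 libraries. The alisertib and combination libraries lie between 0.280 and 0.369%, below the vehicle libraries, and the navitoclax libraries between 0.443 and 0.491%.

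Seen gene by gene, the same order appeared in most of the set. Relative to the vehicle mean of each gene, the median of the 55 log2 differences was −0.50, −0.60 and −0.15 in the alisertib libraries and −0.61, −0.23 and −0.38 in those given both drugs. It was 0.18, 0.29 and 0.12 in the navitoclax libraries and between −0.04 and 0.07 in the vehicle libraries. In combination 1 all 55 genes lay below their vehicle mean, and in alisertib 1 and 2 it was 52 of them each. Alisertib 3 had 39 below. These medians and counts were not taken over all tested genes, so they carry no comparison with other genes.

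**Figure D2:**
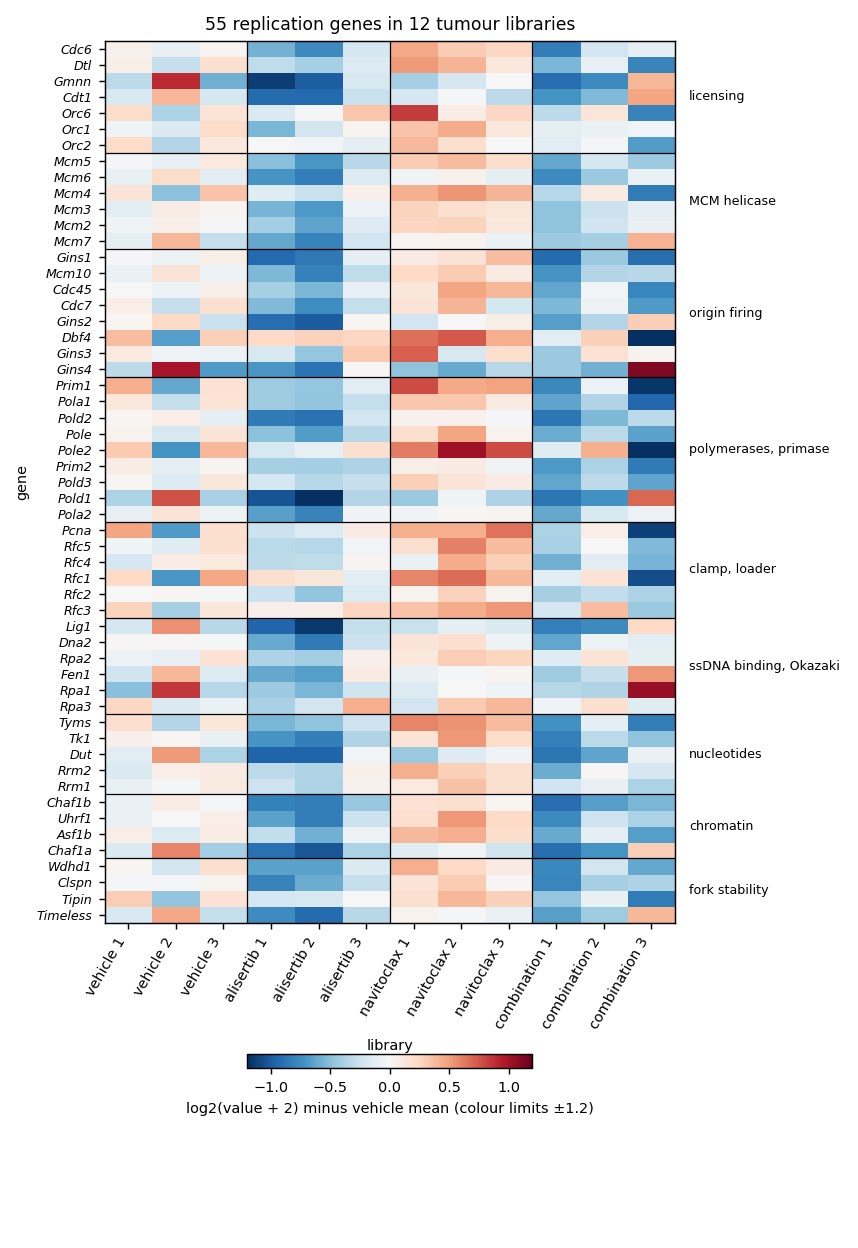
Each row is 1 of the 55 genes, grouped by role, and each column 1 of the 12 libraries; the colour is log2(value + 2) minus the vehicle mean of the gene, limited at ±1.2. Alisertib 1, alisertib 2 and combination 1 are blue in nearly all rows, and vehicle 2 and combination 3 share a pattern of their own, with Gins4, Pold1 and Rpa1 high and Pole2, Dbf4 and Pcna low.

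Levels in the vehicle tumours spanned a wide range. Per kilobase of exon, the highest was Rrm2, the regulated subunit of ribonucleotide reductase, with 1646 ± 169 (SD, n = 3), followed by Pcna with 1521 ± 566 and Mcm2 with 1156 ± 44.5. The lowest were Orc1, the largest subunit of the origin recognition complex, with 54.5 ± 7.83 and Pole2, the second subunit of polymerase epsilon, with 53.6 ± 20. Rrm2 and Pcna do not differ beyond their spread, nor do Pcna and Mcm2, nor Orc1 and Pole2. The highest level was 30.7 times the lowest, and 49 of the 55 genes lay above the median of all tested genes (99.9 per kilobase). Within roles, the MCM subunits ran from Mcm2 down to Mcm4 (435 ± 121), origin firing genes from Gins4 (964 ± 627) to Dbf4 (77.7 ± 26.8), and nucleotide enzymes from Rrm2 to Tyms (123 ± 24.3).

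The mean effect of alisertib compares the 6 libraries given the drug, alone or with navitoclax, with the 6 not given it. It is the mean of 2 differences of log2(value + 2), alisertib minus vehicle and both drugs minus navitoclax. By limma with Benjamini-Hochberg adjustment over 16993 genes, 20 of the 55 genes fell and none rose at an adjusted p under 0.05, where 1.88% of all tested genes fell. The median of the 55 differences was −0.47 against −0.01 over all tested genes, and all 55 were negative, from −0.80 to −0.01 (54 of 55 by edgeR and DESeq2). Unadjusted p was under 0.05 for 38 of them, where 8.88% of all tested genes were lower at this level. The call ended at Dtl (adjusted p = 0.0473), with Mcm3 (0.0509) and Rfc5 (0.0625) just outside. In 14 of the 55 genes all 6 libraries with the drug lay below all 6 without it, against 1.60% of all tested genes. Without vehicle 2 and combination 3, 31 genes fell, where 4.19% of all did. With the ribosomal share as a covariate 44 fell (10.3% of all), with limma-voom and quality weights 45 (8.39% of all), and DESeq2 called 27 (4.67% of all). The count was 7 without vehicle 1, 13 without vehicle 3, 7 without alisertib 1, 6 without alisertib 2, 10 without navitoclax 1 or 2, 12 without navitoclax 3 and 9 without combination 1. It was 20 without vehicle 2, 19 without combination 3, and 21 without alisertib 3 or combination 2. The share over all genes was not counted in these fits, so the numbers carry no comparison with other genes.

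Markers of host cells differed between the libraries as well. All 8 macrophage markers had positive differences for the mean effect of alisertib, 2 of them past the threshold, and their summed level was 1073 to 2490 with vehicle, 3547 to 7708 with alisertib, 1459 to 5600 with navitoclax and 4357 to 11273 with both. All 5 erythroid markers were negative and none passed, with sums of 4304 to 35444 with vehicle, 1395 to 5980 with alisertib, 1936 to 12422 with navitoclax and 956 to 2477 with both. No macrophage, erythroid, muscle, fibroblast, endothelial or adipocyte marker was at 0 throughout a group. All 6 skeletal muscle markers were negative for the mean effect of alisertib (median −1.69, none past the threshold). Their sum was 86147 in navitoclax 1 and 47.1 to 648 in the other 11 libraries. Of 5 fibroblast markers 4 were positive and none passed, with sums of 7098 to 113079 with vehicle, 9591 to 48805 with alisertib, 7045 to 48683 with navitoclax and 23955 to 174895 with both. The highest fibroblast sums were those of vehicle 2 and combination 3. No endothelial or adipocyte marker passed, and of 8 lymphocyte markers 1 was above the filter on low values, with 3 at 0 throughout the vehicle group. All 8 melanocyte markers were positive for the mean effect of alisertib (median 0.18), and none of them passed. They summed to 435432 to 581228 with vehicle, 588219 to 651881 with alisertib, 576104 to 671613 with navitoclax and 503689 to 688519 with both. The part of host cells in the fall of the replication genes was not tested.

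**Figure D3:**
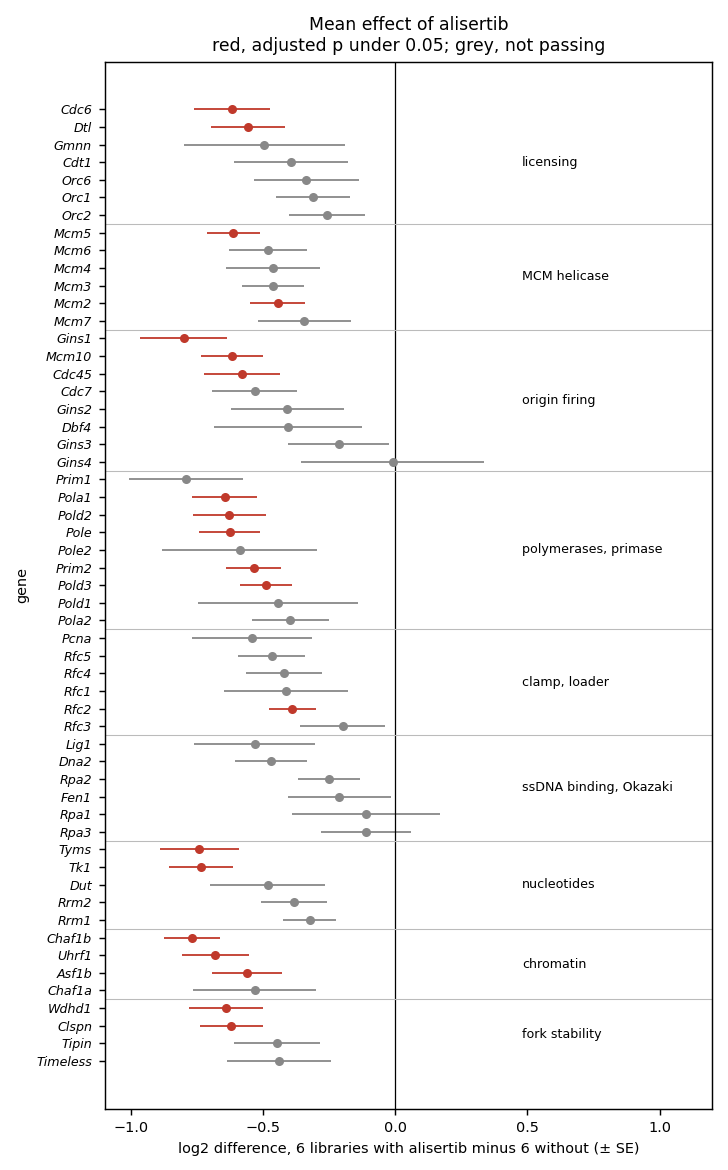
Mean effect of alisertib on each of the 55 genes, grouped by role (y axis), as the log2 difference between 6 libraries with and 6 without the drug, ± SE (x axis). Red points are the 20 genes that passed by limma; all points lie left of 0, from −0.80 (Gins1) to −0.01 (Gins4).

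Licensing genes fell in 2 of 7 cases, with a median of −0.39 (below, ± after a log2 difference is its SE, and adjusted p is from limma). A gene is said to fall where it passed the threshold with a negative difference. Cdc6, which loads the helicase, read 653, 593 and 646 with vehicle, 426, 371 and 544 with alisertib, 867, 779 and 747 with navitoclax and 354, 537 and 583 with both drugs. All libraries with alisertib lay below all others, and the mean effect was a fall by 0.62 ± 0.14 (adjusted p = 0.0353). Dtl, the ubiquitin ligase subunit through which Cdt1 is destroyed in S phase, read 1276, 1002 and 1401 with vehicle, 985, 922 and 1084 with alisertib, 1736, 1611 and 1323 with navitoclax and 831, 1133 and 698 with both. Vehicle 2 lay within the range of the alisertib libraries, and Dtl fell by 0.56 ± 0.14 in the mean effect. Of the origin recognition complex the set holds 3 subunits, Orc1, Orc2 and Orc6, which had differences of −0.31 ± 0.14, −0.26 ± 0.14 and −0.34 ± 0.20, none past the threshold. The other 3, Orc3, Orc4 and Orc5, were measured outside the set and had −0.19 ± 0.35, −0.14 ± 0.23 and −0.19 ± 0.18, also none past it. Cdt1 (−0.39 ± 0.22) and its inhibitor geminin, Gmnn (−0.50 ± 0.30), had the widest errors of the role and did not pass.

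Of the MCM helicase 2 of 6 subunits fell, with a median of −0.46 and differences between −0.61 and −0.34. Mcm5 (ENSMUSG00000005410.6, chr8:75109569-75128439, plus strand, GRCm38) read 2689, 2543 and 2958 with vehicle, 1928, 1680.4 and 2163 with alisertib, 3356, 3553 and 3156 with navitoclax and 1781, 2351 and 2016 with both. Every library with alisertib lay below every library without it, the navitoclax libraries were the highest, and the mean effect was −0.61 ± 0.10 (adjusted p = 0.00648). Mcm2, the subunit with the highest level per kilobase, read 7802, 8392 and 7936 with vehicle, 6051, 5170.5 and 7222 with alisertib, 9642, 9684 and 8791 with navitoclax and 5740.4, 6791 and 7574 with both. These groups with and without the drug did not overlap either, and Mcm2 fell by 0.45 ± 0.11 (adjusted p = 0.038). Mcm3, Mcm4, Mcm6 and Mcm7 had −0.46 ± 0.12, −0.46 ± 0.18, −0.48 ± 0.15 and −0.34 ± 0.18 and did not pass. The differences of Mcm3, Mcm4 and Mcm6 were no smaller in size than that of Mcm2, and their errors were wider.

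Among the origin firing genes 3 of 8 fell (median −0.47). Gins1, a subunit of the GINS complex, had the most negative difference of the whole set. It read 269.7, 262 and 287 with vehicle, 142, 149.8 and 253 with alisertib, 292, 308 and 352 with navitoclax and 143, 199 and 145 with both. All libraries with the drug were lower than the rest, although alisertib 3 came close to vehicle 2, and Gins1 fell by 0.80 ± 0.17 (adjusted p = 0.0223). Mcm10, a helicase activator, read 918, 1081 and 921 with vehicle and 667, 552 and 785 with alisertib, and 1147, 1201 and 1043 with navitoclax and 593, 759 and 771 with both. Groups with and without the drug did not overlap, and Mcm10 fell by 0.62 ± 0.12 (adjusted p = 0.0146). Cdc45, the third component of the active helicase, fell by 0.58 ± 0.14 (adjusted p = 0.0466), from 669 ± 33.5 with vehicle to 528 ± 87.3 with alisertib, and from 846 ± 102 with navitoclax to 492 ± 143 with both. The other GINS subunits did not pass, with −0.41 ± 0.21 for Gins2, −0.21 ± 0.19 for Gins3 and −0.01 ± 0.34 for Gins4. Cdc7 and its activator Dbf4 stood at −0.53 ± 0.16 and −0.41 ± 0.28.

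The polymerases and primase gave 5 falls among 9 genes, with a median of −0.59. Prim2, the large primase subunit, read 722, 627 and 695 with vehicle, 515, 513 and 527 with alisertib, 712, 729.8 and 660.1 with navitoclax and 422, 522 and 376 with both. All libraries with alisertib lay below all without, and Prim2 fell by 0.54 ± 0.10 (adjusted p = 0.0157). Pola1, the catalytic subunit of polymerase alpha, which starts each new strand, read 1252, 941 and 1282 with vehicle, 854, 824 and 941 with alisertib, 1436, 1441 and 1236 with navitoclax and 739, 895 and 597 with both. Vehicle 2 and alisertib 3 were level, so these groups touched, and the mean effect was a fall, −0.65 ± 0.12 (adjusted p = 0.0157). Pole, the catalytic subunit of the leading strand polymerase epsilon, read 1854, 1576 and 2013, then 1284, 1133 and 1433 with alisertib, 2067, 2514 and 1857 with navitoclax and 1195, 1445 and 1154 with both. It fell by 0.63 ± 0.11 (adjusted p = 0.0118) with no overlap.

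In polymerase delta, which extends the lagging strand, 2 of the 3 subunits in the set fell. Pold3, an accessory subunit, read 882, 777 and 954 with vehicle, 751, 686 and 718 with alisertib, 1057, 969 and 931 with navitoclax and 563, 697 and 557 with both. The libraries with alisertib lay below the others, and Pold3 fell, with −0.49 ± 0.10 (adjusted p = 0.0199). Pold2 fell by 0.63 ± 0.14 (adjusted p = 0.0291), from 1039 ± 67.9 with vehicle to 673 ± 186 with alisertib. The catalytic subunit Pold1 did not pass (−0.45 ± 0.30, adjusted p = 0.493), and nor did Pold4, a small accessory subunit outside the set, with a positive difference (0.22 ± 0.17, adjusted p = 0.55). Pold1 read 2321, 5148 and 2314 with vehicle and 1661, 1829.9 and 4882 with both drugs, where vehicle 2 and combination 3 were far above the other libraries of their groups. Prim1, the catalytic primase subunit, had a difference close in size to that of Gins1 but did not pass (−0.79 ± 0.22, adjusted p = 0.0647), and nor did Pola2 (−0.40 ± 0.15) or Pole2 (−0.59 ± 0.29).

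Of the clamp and its loader 1 of 6 genes passed, Rfc2 (−0.39 ± 0.09, adjusted p = 0.0313). All 6 differences were negative, with a median of −0.42, and unadjusted p by limma was under 0.05 for 4. Rfc2, a small subunit of the loader, read 1555, 1585 and 1525 with vehicle, 1296, 1117 and 1389 with alisertib, 1605, 1885 and 1600.3 with navitoclax and 1179.5, 1267 and 1198 with both. Its vehicle libraries were close to each other, and all libraries with alisertib were lower than all without. Pcna, the clamp that holds the polymerases on DNA, read 4812, 2156 and 3984 with vehicle, 2898, 3084 and 3713 with alisertib, 4647, 4683 and 5447 with navitoclax and 2663, 3662 and 1585 with both. Vehicle 2 and combination 3 were the lowest of all, the groups overlapped, and Pcna did not pass (−0.54 ± 0.23, adjusted p = 0.226). Rfc1, Rfc3, Rfc4 and Rfc5 had −0.41 ± 0.24, −0.20 ± 0.16, −0.42 ± 0.14 and −0.47 ± 0.13.

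None of the 6 single-strand binding and Okazaki fragment genes passed by limma, and their median of −0.23 was the nearest to 0 of all roles. Unadjusted p was under 0.05 for 2 of them, Dna2 and Lig1. Rpa1 and Rpa3, the large and the small subunit of replication protein A, which coats single-stranded DNA, had −0.11 ± 0.28 and −0.11 ± 0.17, and Rpa2 had −0.25 ± 0.12. Rpa1 read 3157, 8091 and 3527 with vehicle, 3321, 3061 and 3794 with alisertib, 3992, 4510.1 and 4336 with navitoclax and 3527, 3499.8 and 9254 with both. Vehicle 2 and combination 3 were far above the others, and the groups overlapped. Fen1, the flap nuclease, had −0.21 ± 0.20, DNA ligase 1, Lig1, had −0.53 ± 0.23, and Dna2, a nuclease and helicase, had −0.47 ± 0.14 (adjusted p = 0.0796).

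Nucleotide synthesis genes fell in 2 of 5 cases, Tk1 and Tyms, and all 5 differences were negative (median −0.48). Tk1, thymidine kinase 1 (ENSMUSG00000025574.13, chr11:117815526-117826092, minus strand), read 1649, 1607 and 1486 with vehicle, 969, 888 and 1229.6 with alisertib, 1766, 2259.8 and 1842 with navitoclax and 894, 1259 and 1133 with both. All libraries with alisertib lay below all without, and Tk1 fell by 0.74 ± 0.12 (adjusted p = 0.00671). Tyms, thymidylate synthase (ENSMUSG00000025747.12, chr5:30058202-30073617, minus strand), read 851, 581 and 819.9 with vehicle, 505, 528 and 621 with alisertib, 1109.8, 1075 and 964 with navitoclax and 446, 688 and 416 with both. The navitoclax libraries were the highest, vehicle 2 lay among those with alisertib, and Tyms fell by 0.74 ± 0.15 (adjusted p = 0.0206). Ribonucleotide reductase, which makes deoxynucleotides, had −0.32 ± 0.10 for Rrm1 and −0.38 ± 0.13 for Rrm2. Dut, which removes dUTP, had −0.48 ± 0.22. None of these passed the threshold (adjusted p by limma = 0.0999, 0.117 and 0.262).

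Chromatin genes that work behind the fork fell in 3 of 4 cases, with the most negative median of all roles, −0.62. Chaf1b (ENSMUSG00000022945.11, chr16:93883901-93906115, plus strand), a subunit of the chromatin assembly factor that places histones on new DNA, had the smallest p of the set. It read 993, 1122 and 1044 with vehicle, 598, 589 and 769 with alisertib, 1188, 1199 and 1068 with navitoclax and 557, 664 and 717 with both. The highest library with alisertib lay well under the lowest without, and Chaf1b fell by 0.77 ± 0.11 (adjusted p = 0.00269). Uhrf1, which recognises half-methylated DNA after the fork and recruits the methyltransferase Dnmt1, read 4162, 4428 and 4649.6 with vehicle, 2821, 2481 and 3681 with alisertib, 5080.0, 6343 and 5189 with navitoclax and 2597, 3706 and 3391 with both. The groups with and without alisertib did not overlap, and Uhrf1 fell by 0.68 ± 0.13 (adjusted p = 0.0131). Asf1b, a histone chaperone, fell by 0.56 ± 0.13 (adjusted p = 0.038), and Chaf1a, the large subunit of the same assembly factor, did not pass (−0.53 ± 0.23, adjusted p = 0.243).

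Of the fork stability genes 2 of 4 fell (median −0.53). Clspn, claspin, an adaptor of the replication checkpoint, read 880.1, 875 and 906 with vehicle, 507, 585 and 727 with alisertib, 991, 1094 and 898 with navitoclax and 514, 671 and 684 with both. No library with alisertib reached those without it, and Clspn fell by 0.62 ± 0.12 (adjusted p = 0.0154). Wdhd1, which links polymerase alpha to the helicase, fell by 0.64 ± 0.14 (adjusted p = 0.0271), from 765 ± 107 to 549 ± 108 with alisertib. Timeless and Tipin, partners in 1 fork protection complex, had −0.44 ± 0.20 and −0.45 ± 0.16 and did not pass.

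Alisertib alone was set against vehicle to ask what the drug does without navitoclax. By limma 0 of the 55 genes passed, where 0.318% of all tested genes fell. Unadjusted p was under 0.05 for 25 of them, where 6.46% of all tested genes were lower at this level. Without vehicle 2 and combination 3 limma also called 0, where 0.406% of all genes fell. On the recovered reads, edgeR called 0 with either scaling, DESeq2 called 5 (1.94% of all genes lower) and limma-voom with quality weights 23 (3.61%), and the ribosomal share as a covariate in limma gave 15 (3.42%). The median was −0.41 against 0.01 over all genes, and 51 of 55 differences were negative. Chaf1b came nearest (−0.70 ± 0.15, adjusted p = 0.0632), followed by Tk1 (−0.63 ± 0.17, adjusted p = 0.14) and Mcm5 (−0.51 ± 0.14). In 20 genes all 3 alisertib libraries lay below all 3 vehicle libraries, against 10.5% of all genes, and in none did they lie above.

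Navitoclax alone was set against vehicle in the same way, and the 2 comparisons share the vehicle libraries. None of the 55 genes passed by limma, edgeR, DESeq2 or limma-voom, where 0.0647% of all tested genes passed by limma, all of them lower. The median was 0.22 against 0.01 over all genes, with 43 of 55 differences positive. Tyms was the single gene with an unadjusted p under 0.05 (0.50 ± 0.21, adjusted p = 0.704), a smaller share than the 6.37% of all tested genes. Pole2 had the most positive difference, 0.81 ± 0.41, from 182, 88.2 and 193 with vehicle to 225, 297 and 252 with navitoclax, and vehicle 2 was the low one. In 19 genes all navitoclax libraries lay above all vehicle libraries, against 6.50% of all genes. All 6 muscle markers had positive differences here (median 3.25, none past the threshold), with the high sum in navitoclax 1. Without that library the median of the 55 genes was 0.20, and 0 passed.

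**Figure D4:**
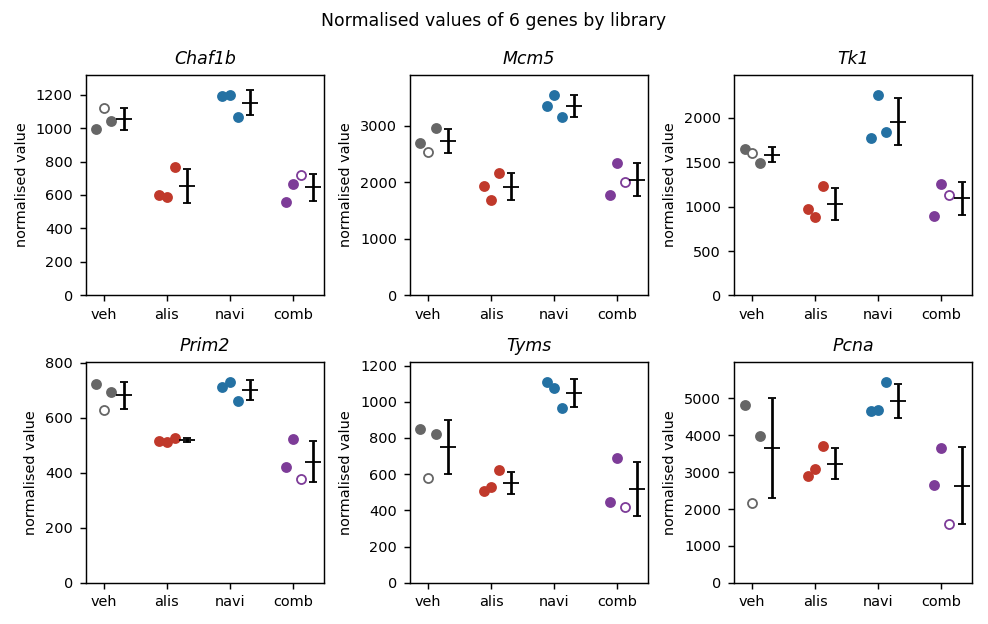
Normalised values (y axis, from 0) of Chaf1b, Mcm5, Tk1, Prim2, Tyms and Pcna in each library of the vehicle (veh), alisertib (alis), navitoclax (navi) and combination (comb) groups; open circles are vehicle 2 and combination 3, bars give mean ± SD of 3 libraries. Chaf1b, Mcm5, Tk1 and Prim2 are lower in every library with alisertib, while in Pcna vehicle 2 and combination 3 are lowest.

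Both drugs together were set against vehicle, with the same vehicle libraries once more. By limma 2 of the 55 genes fell, where 1.15% of all tested genes did, and none rose. These were Chaf1b, with 0.71 ± 0.15 lower and an adjusted p of 0.0346, and Prim2, with 0.64 ± 0.15 lower and an adjusted p of 0.045. The median was −0.42 against −0.01 over all genes, with 53 of 55 differences negative. Pold3 (−0.52 ± 0.14, adjusted p = 0.0738) and Pola1 (−0.64 ± 0.18, adjusted p = 0.0801) came next. Leaving out any 1 of the 12 libraries left 0 or 1 genes past the threshold. The libraries of the single drugs do not enter this difference, but they enter the shared estimate of spread. The share over all genes was not counted in the fits without a single library. Without vehicle 2 and combination 3 limma called 3, all lower, where 0.883% of all genes fell. DESeq2 called 5 (3.32% of all genes lower), limma-voom with quality weights 19 (5.76%) and the ribosomal share as a covariate gave 19 (7.89%). In these last fits the share over all genes rose with the count. In 18 genes the groups did not overlap, all lower, against 9.47% of all genes.

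Adding alisertib to navitoclax was tested as both drugs against navitoclax. By limma 6 of the 55 genes fell and none rose, where 0.224% of all tested genes fell. These were Chaf1b (−0.84 ± 0.15, adjusted p = 0.0264), Pola1 (−0.90 ± 0.18), Pold3 (−0.71 ± 0.14), Mcm5 (−0.72 ± 0.14), Tyms (−1.05 ± 0.21) and Tk1 (−0.84 ± 0.17, adjusted p = 0.0429). The level of Tyms was 1049.7 ± 76.2 with navitoclax and 517 ± 149 with both. The median was −0.60 against −0.03 over all genes, and 53 of 55 differences were negative. In 35 genes all 3 libraries given both drugs lay below all 3 given navitoclax, against 14.8% of all genes. The number of genes called was 14 without combination 2, 9 without vehicle 2 and 2 without alisertib 3. It was 1 without vehicle 1, vehicle 3, alisertib 2 or combination 3, and 0 without alisertib 1, combination 1 or any navitoclax library. For these fits the share over all genes was not counted, so the numbers carry no comparison with other genes. Without both libraries rich in ribosomal RNA 10 were called, where 0.583% of all genes fell. DESeq2 called 24 (2.48% of all genes lower), limma-voom with quality weights 35 (4.21%) and the ribosomal share as a covariate gave 30 (2.37%).

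Adding navitoclax to alisertib gave no call. Between both drugs and alisertib 0 of 55 genes passed by limma, none had an unadjusted p under 0.05 (3.51% of all genes), and edgeR, DESeq2 and limma-voom called 0, as limma did over all tested genes (0%). The median was 0.04, with 26 differences negative and 29 positive, and in all 55 genes the groups overlapped. Prim2 read 518 ± 7.59 with alisertib and 440.0 ± 74.5 with both (−0.25 ± 0.15), and Pold3 had the smallest p (−0.25 ± 0.14, adjusted p = 0.681). The mean effect of navitoclax called 0 of 55 genes by each of the same tools, with a median of 0.11, 48 positive differences and no unadjusted p under 0.05 (3.94% of all genes). Mcm5 had its smallest p (0.19 ± 0.10, adjusted p = 1).

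Whether the effect of alisertib differed with navitoclax was tested as the interaction. By limma 0 of the 55 genes passed, against 0.00588% of all tested genes, and the other tools called 0. Unadjusted p was under 0.05 for 2 genes, Dbf4 (−1.32 ± 0.56, adjusted p = 0.436) and Pold3 (−0.43 ± 0.20), a smaller share than the 8.53% of all tested genes. The median was −0.21 against −0.04 over all genes, with 39 differences negative. The clamp and its loader had the most negative median of the roles, −0.56, with all 6 genes negative. Single-strand binding and Okazaki fragment genes had the most positive, 0.28. In this difference vehicle and combination enter with the same sign, so deviations shared by the 2 libraries rich in ribosomal RNA add up. Pcna was low and Rpa1 high in both, while Rfc2 and Rpa2 lay nearer to their groups. Without these libraries 48 of the 55 differences were negative, with a median of −0.20, and limma called 0. Medians of the roles are not given without them, so the part of these libraries in the order of roles was not tested. Errors of single genes were wide, as for Prim1 (−0.90 ± 0.43) and Tyms (−0.62 ± 0.30), which did not pass.

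Another 50 genes of replication, nucleotide synthesis and newly made chromatin, listed beside the 55, all passed the filter. For the mean effect of alisertib 8 of them fell and none rose, where 1.88% of all tested genes fell. The median was −0.28 against −0.01 over all tested genes, and 40 of 50 were negative. Dnmt1, the methyltransferase that copies DNA methylation after the fork, read 7047, 6079 and 6911 with vehicle, 4859, 4344 and 4902 with alisertib, 7625, 7584 and 6616 with navitoclax and 4432, 5192 and 4053 with both. Every library with alisertib was lower than every other, and Dnmt1 fell by 0.59 ± 0.09 (adjusted p = 0.00546). Top2a, which untangles replicated DNA, fell by 0.71 ± 0.14, and Nasp, a histone chaperone, by 0.75 ± 0.18. Mtbp and Recql4, which take part in origin firing, fell by 0.86 ± 0.21 and 0.65 ± 0.16, Rif1, a regulator of replication timing, by 0.46 ± 0.12, and Atad5, which unloads PCNA, by 0.49 ± 0.13. Of these 50 genes 2 passed with both drugs against navitoclax, both lower, where 0.224% of all tested genes fell. They were Dnmt1 (−0.68 ± 0.13, adjusted p = 0.0373) and Top2a (−1.02 ± 0.20, adjusted p = 0.0409). In the other 6 contrasts 0 passed by limma. Unadjusted p was under 0.05 for 8 of the 50 with alisertib against vehicle, 3 with navitoclax and 9 with both drugs, where 13.0, 6.37 and 16.9% of all tested genes were, so these counts lie near the background. It was so for 0 between both drugs and alisertib, 1 for the mean effect of navitoclax and 2 for the interaction, where 3.51, 3.94 and 8.53% of all tested genes were.

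Vehicle 2 and combination 3, the libraries rich in ribosomal RNA, departed from their group mates in the same genes. Against the mean of the other 2 libraries of the group on the log2 scale, Gins4 was higher by 1.49 in vehicle 2 and by 1.62 in combination 3. Rpa1 was higher by 1.28 and 1.40, Gmnn by 1.35 and 1.24, and Pold1 by 1.15 and 1.48. Pole2 differed by −1.07 and −1.45, Dbf4 by −0.99 and −1.57, Rfc1 by −1.05 and −1.08, and Pcna by −1.02 and −0.98. Across the 55 genes the deviations in the 2 libraries had a Pearson r of 0.961, and their r with the GC content of the longest coding transcript was 0.606 in vehicle 2 and 0.668 in combination 3. Over 13215 protein-coding genes the r with GC was 0.415 and 0.449. These are descriptions across genes, which are not replicates and share a library. Without these libraries the median standard deviation within groups was 0.22 for the 55 genes and 0.23 for all genes, against 0.26 and 0.37 with them. The groups of alisertib and vehicle then did not overlap in 33 of the 55 genes (18.4% of all genes lower), navitoclax and vehicle in 26 (10.3% higher), and both drugs and vehicle in 45 (28.6% lower). This left 2 vehicle libraries against 3 for each single drug and 2 against 2 for both drugs. Fewer libraries separate more easily.

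**Figure D5:**
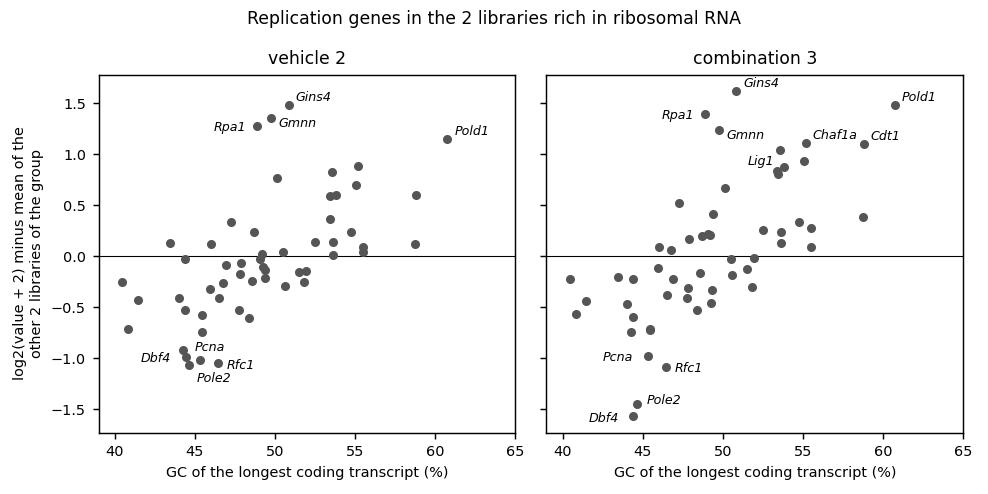
Log2(value + 2) of each of the 55 genes in vehicle 2 (left) and combination 3 (right), minus the mean of the other 2 libraries of its group (y axis), against the GC content of the longest coding transcript in percent (x axis). Gins4, Rpa1, Gmnn and Pold1 are high and Pole2, Dbf4, Rfc1 and Pcna low in both libraries, and points rise to the right.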

How the data were processed

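RNA of 12 tumour libraries was sequenced after ribosomal RNA depletion with a directional kit, per the labels' protocols. The authors deposited a normalised signal per gene and library, not raw counts; all values (100%) were whole multiples of 1 step per library within 0.001, and whole reads were recovered by dividing by it. The submitters' processing notes list the tools featureCounts, DESeq2, Subread 1.5.1 and HISAT2 2.0.6, and as genome builds mm10 and GRCm38.p4, without saying what each did. The strand setting of the counting is not given in the sources used here, so overlapping and antisense genes are uncertain. Coordinates are from GENCODE M21 (GRCm38, counted from 1).

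Groups came from the labelled treatment, and libraries were numbered in accession order, which pairs nothing. The column of navitoclax 3 was matched by its library code. The filter on low values asked for 10 or more in 3 or more libraries and left 16993 genes. Group means were fitted over the 12 libraries by limma 3.58.1 (R 4.3.3, trended and robust) on log2(value + 2), which understates changes of low genes. Adjusted p is Benjamini-Hochberg over all tested genes within each of 8 contrasts, at 0.05. A test for raw counts had been planned in case the table held them. Alternatives were edgeR 4.0.16 quasi-likelihood and DESeq2 1.42.0 on recovered reads, limma-voom with quality weights, pseudocounts of 0.5 and 8, no filter and a minimum of 50. Others were fits of the compared groups only, with the ribosomal share as a covariate, without vehicle 2 and combination 3, and without each library. The tests were tried on simulated data, where a limit on false calls was set for limma, edgeR and limma-voom but not for DESeq2.

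Members, lists, contrasts and alternatives were chosen with earlier results of these data known. Named with values were genes past the threshold (at most 10 a contrast by p), the 4 or 8 with the smallest p, and the extremes in level and p of each role; other members named were chosen after their values were seen. In normalised units 3 reads came to 7.35 for vehicle 2, 10.9 for combination 3 and at most 3.00 for the rest, a limit for counting error only. The values of 1 gene of the further list are not reported here.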

Additional observations from a re-analysis of the deposited data

How the results depend on the processing

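No paired analysis was possible because the labels number no replicates. Counts of the 55 genes called against vehicle for alisertib moved from 0 to 5 with DESeq2, 23 with limma-voom and 15 with the ribosomal share as a covariate. For both drugs against vehicle the count of 2 became 0 with no filter or with the compared groups only, 1 with edgeR at TMM or RLE scaling, 5 with DESeq2, 19 with limma-voom and 19 with the covariate. For both drugs against navitoclax the count of 6 became 0 with no filter or the compared groups only, 24 with DESeq2, 35 with limma-voom, 10 without vehicle 2 and combination 3, and 30 with the covariate. The 20 genes of the mean effect of alisertib became 14 with no filter, 18 and 19 with edgeR at TMM and RLE scaling, 27 with DESeq2, 45 with limma-voom, 31 without vehicle 2 and combination 3, and 44 with the covariate. Leaving out single libraries gave 0 to 1 genes for alisertib against vehicle, 0 to 1 for both drugs against vehicle, 0 to 14 for both drugs against navitoclax and 6 to 21 for the mean effect of alisertib. For navitoclax against vehicle, both drugs against alisertib, the mean effect of navitoclax and the interaction it gave 0 throughout. Where these counts rose with DESeq2, limma-voom or the covariate, the share called over all genes rose too, as given with each comparison. For both drugs against vehicle without vehicle 2 and combination 3 the count rose to 3, while the share lower over all genes fell from 1.15 to 0.883%. In the fits without a single library, with no filter, of the compared groups only and by edgeR the share over all genes was not counted. Their counts therefore carry no comparison with other genes. The fit with no filter also tested more genes, 29711 against 16993. The causes were not tested. Values of single genes under the alternatives were followed only for the genes of smallest p named in each contrast. Of these values, 1035 kept direction and call, 37 gained and 106 lost the call, and 0 changed sign while called. Gains and losses in the other genes of the 55 are not in these numbers. Chaf1b, Mcm5, Tk1, Pole, Uhrf1 and Mcm10 kept their call for the mean effect of alisertib in all 22 alternatives. The depth of vehicle 2 and combination 3, the lowest of the 12 outside the ribosomal loci, limits their values most in genes of few reads, such as Pole2.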

Other observations

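The 55 genes varied together from library to library. Over the 1485 pairs of genes, the median Pearson r of log2(value + 2) was 0.66 across all 12 libraries and 0.85 across the 10 without vehicle 2 and combination 3, and 89.4% and 99.7% of pairs were positive. All pairs share the libraries and their treatments, so these are descriptions and carry no test. Within groups, Rfc2 had the smallest spread of the set (standard deviation of 0.11 on the log2 scale) and Gins4 the largest (0.69). Without vehicle 2 and combination 3 the smallest was that of Prim2 (0.10) and the largest that of Gins3 (0.40).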
